A study of Mus musculus with 27 samples.

Results

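Cadherins and protocadherins were followed through every RNA experiment of a mouse study on the transcription factor Nkx2.2 and on a version of it with a mutated SD domain. Members were all rows of the 3 deposited read-count tables whose gene symbol is Cdh followed by a number only, or starts with Pcdh. The rule found 93 of 55536 rows in the embryonic pancreas table, 94 of 26487 in the islet table and 60 of 39017 in the progenitor table. Of these, 92, 92 and 58 rows had any count, and 78, 83 and 48 passed the filter on low counts. The rows with no count were Pcdha4 in the embryonic table, Pcdha4 and Pcdha4-g in the islet table, and Cdh19 and 1 of the 2 Pcdh15 rows in the progenitor table. The progenitor table held 1 row of the alpha cluster, Pcdha2, and 1 of the gamma cluster, Pcdhga9, so these clusters were seen there through a single row each.

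Whole pancreas was taken at the embryonic stage E15.5 from 3 embryos labelled control, which the study's design text calls wild type, and from 4 Nkx2.2SDmut embryos. Islets at 8 weeks came from 2 controls and from 3 mice labelled betaSDmut, in which the SD-domain mutation is beta-cell specific per the design text. Islets at 4 weeks came from 2 controls and 2 libraries labelled betaKO. Motor neuron progenitors (pMN) were differentiated to day 4 from mouse embryonic stem cells. The pMN group was the untreated iNkx2.2 line (3 libraries). The iNkx2.2 group was the same line given 1 µg/ml doxycycline for about 16 h, which switches on a FLAG-tagged wild-type Nkx2.2 (3 libraries). The iSDmut group was a second line given doxycycline to express the FLAG-tagged SD-domain mutant, which carries the mutations of the Nkx2.2SDmut mice (2 libraries). No untreated iSDmut library was analysed here, so the iSDmut transgene and its cell line cannot be told apart, and doxycycline itself is shared by both induced groups. The Cre driver behind the beta-cell labels and the number of clones per cell line are not given in the sources used here. Nothing in the labels says that the replicate libraries came from separate cultures, so p-values measure the spread between these libraries. Only the embryo titles carry a code, a number with a letter. Some of these numbers are shared by embryos of both genotypes, and the labels do not say what they stand for. The main E15.5 test did not use the number as a block.

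Counted reads per library ran from 12398041 to 32385406 in the islet table, from 17757991 to 46840701 in the progenitor table and from 38447596 to 41840638 in the embryonic table. Levels below are CPM, a gene's count relative to the TMM-scaled total of its library, scaled within each table, so levels are not compared between tables. With so few libraries a group, groups often fail to overlap by chance alone, most of all in islets. The share of all genes without overlap was not counted, so a lack of overlap is given as description only. Nkx2-2 itself was at 11.6, 5.40 and 10.7 CPM in pMN, 378, 343 and 343 in iNkx2.2, and 248 and 245 in iSDmut. In 4-week islets Nkx2-2 was at 103 and 76.2 CPM in controls and 92.9 and 64.6 in those labelled betaKO, a log2 difference of -0.18 (adjusted p = 0.779 by edgeR's quasi-likelihood test). That difference did not pass the test, so the libraries are called by their label, "labelled betaKO", throughout. These 4-week libraries are also labelled as genomic DNA, while their columns hold gene counts like the other islet libraries.

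Cadherins are calcium-dependent adhesion proteins. The classical ones (type I, such as E-cadherin and N-cadherin, and type II) bind the same protein on the next cell and are anchored to actin through catenins, and cells that change their cadherins can sort away from their neighbours. Protocadherins are the largest branch of the family. The alpha, beta and gamma genes lie in clusters in which single cells choose among promoters, and the delta protocadherins are single genes with roles in cell sorting and neural wiring. In islets E-cadherin and N-cadherin join beta cells to each other, and in the neural tube N-cadherin is the main adhesion protein of progenitors.

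Nkx2.2 binding in MIN6, a mouse insulinoma line used as a beta-cell model, is an independent readout of the members. The deposited set held 6473 final sites, and their positions lie within the chromosome lengths of GRCm38 (mm10). A site lay inside the gene or within 50 kb of its start for 12 of 92 members (13.0%), and for 9 of the 35 members outside the protocadherin clusters (25.7%). The same held for 28.0% of 21951 protein-coding genes, although the median member outside the clusters was 123 kb long against 17.4 kb for all genes. With a window of 10 kb the shares were 17.1% of members outside the clusters and 14.1% of all genes. Pcdhgc3, Pcdhgc4 and Pcdhgc5 shared 1 site, and Cdh16, Cdh20 and Cdh24 had a site outside the gene body.

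The sites at Cdh1, Cdh22 and Pcdh15 are shown because the authors' deposited tables join them to members that their 8-week islet comparison calls higher or lower. Those at Cdh23 and Cdh4 are shown because they were the highest-ranked member sites, and the authors' deposited tables do not join them to these genes. All were intronic in the GRCm38 annotation. At the Cdh1 site (chr8:106642347-106642467, 39.1 kb from the start) the deposited log2 CPM was 7.59 and 7.62 in the 2 replicates, rank 1179 among the final sites. At the Cdh22 site (chr2:165158780-165158900, 76.0 kb from the start) it was 7.69 and 7.63, rank 1105. The Pcdh15 site (chr10:73845058-73845178) had 7.01 and 6.95, rank 2695. The Cdh23 site (chr10:60447386-60447506) had 9.79 and 9.69, rank 35, and the Cdh4 site (chr2:179843222-179843342) 9.34 and 9.26, rank 105. Read from the plus strand, with capitals marking a searched motif, the 121 bases centred on each site are:
Cdh1: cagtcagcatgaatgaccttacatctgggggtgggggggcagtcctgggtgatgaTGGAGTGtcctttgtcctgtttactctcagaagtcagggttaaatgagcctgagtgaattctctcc
Cdh22: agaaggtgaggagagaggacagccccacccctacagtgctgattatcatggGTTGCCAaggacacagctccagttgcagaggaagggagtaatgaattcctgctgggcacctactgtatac
Pcdh15: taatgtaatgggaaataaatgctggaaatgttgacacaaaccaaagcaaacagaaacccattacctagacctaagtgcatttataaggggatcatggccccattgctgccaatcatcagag
Cdh23: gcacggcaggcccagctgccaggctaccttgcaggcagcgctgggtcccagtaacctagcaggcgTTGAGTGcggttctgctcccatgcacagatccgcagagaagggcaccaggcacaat
Cdh4: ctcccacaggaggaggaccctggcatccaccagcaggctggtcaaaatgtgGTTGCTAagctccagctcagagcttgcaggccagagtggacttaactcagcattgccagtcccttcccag
The motifs searched on both strands were TNAAGTG and TNGAGTG, which resemble the letters bound by NK2-class homeodomains, and GTTGCNA, which resembles the X-box of RFX factors. They were picked after the commonest 7-base words at all sites had been counted. TNGAGTG stood 2 bases from the Cdh1 site and 8 bases from the Cdh23 site. GTTGCNA stood 6 bases from the site at both Cdh22 and Cdh4. None of the 3 was in the Pcdh15 window. Among windows of the same length at all final sites, TNAAGTG was in 9.44%, TNGAGTG in 19.4% and GTTGCNA in 24.3%, against 6.5%, 4.73% and 3.26% of windows 2 kb away. A match of letters is a description of the sequence, not of what bound there.

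In motor neuron progenitors, wild-type Nkx2.2 was followed by higher levels of the type II cadherins Cdh11 and Cdh22, of the delta protocadherin Pcdh1 and of Pcdhb3, and by a lower level of the delta protocadherin Pcdh8. These were the 5 of 48 tested members with an adjusted p under 0.05 (edgeR's quasi-likelihood test with Benjamini-Hochberg adjustment over all genes), beside 9.49% of all 15653 genes tested. The replicate numbers of pMN and iNkx2.2 pair the libraries in these data, and with that number as a block 17 of 48 members passed, beside 29.6% of all genes. Both shares of members are near those of all genes. In description the members differed from all genes in direction. Of the 48, 36 were higher, with a median log2 fold change of 0.54 against -0.01 over all genes. At an unadjusted p under 0.05, 14 of 48 were higher beside 12.7% of all genes. Much of this lay in the beta cluster, where all 20 tested rows were higher and 8 had such a p. Median log2 fold changes were -0.02 for type I cadherins, 0.07 for type II cadherins and 0.68 for delta1 protocadherins. All 4 tested delta2 protocadherins were lower.

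**Figure D1:**
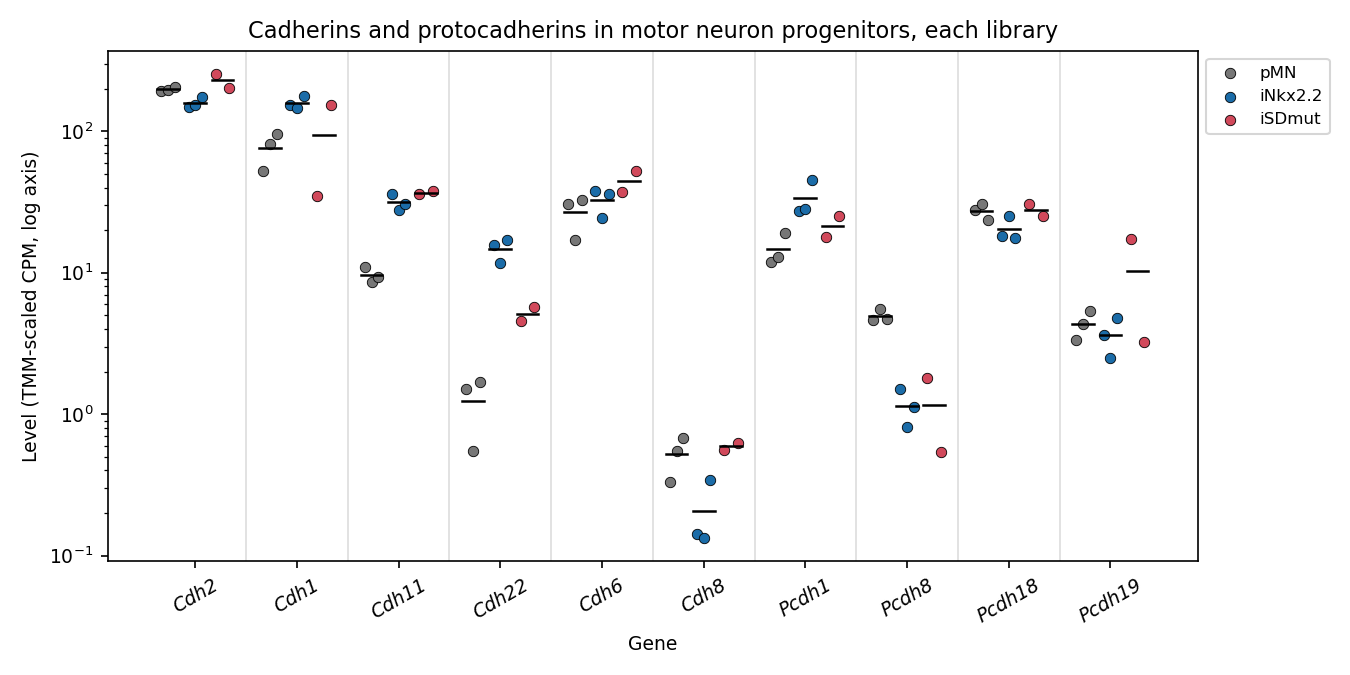
Level of 10 cadherins and protocadherins in each progenitor library, as TMM-scaled CPM on a log axis, with a black bar at each group's mean. Cdh11 and Cdh22 lie higher in all iNkx2.2 and iSDmut libraries than in all pMN libraries, and Pcdh8 lies lower.

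Cdh11 (OB-cadherin, first known from mesenchyme and bone) was at 11.0, 8.55 and 9.36 CPM in pMN, 35.9, 27.6 and 30.8 in iNkx2.2, and 35.7 and 37.8 in iSDmut. Every induced library lay above every pMN library, and the induced groups overlapped each other. The log2 fold change was 1.71 (SE 0.14, 3.27-fold, adjusted p = 0.00026) for iNkx2.2 against pMN and 1.93 (SE 0.15, 3.82-fold, adjusted p = 0.00059) for iSDmut against pMN by edgeR's test. These contrasts share the pMN libraries. The direct contrast of iSDmut with iNkx2.2 gave 0.23 (SE 0.15, adjusted p = 0.583). Cdh11 kept its adjusted p under 0.05 against pMN in both contrasts whichever library was left out.

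Cdh22 (PB-cadherin, found in pituitary and brain) had the largest increase of any tested member. It was at 1.50, 0.546 and 1.69 CPM in pMN, 15.6, 11.7 and 16.9 in iNkx2.2, and 4.59 and 5.69 in iSDmut. The 3 groups did not overlap, and the iSDmut libraries lay between the others. The log2 fold change was 3.53 (SE 0.35, 11.6-fold, adjusted p = 0.000538) for iNkx2.2 and 2.01 (SE 0.37, 4.04-fold, adjusted p = 0.0213) for iSDmut. The direct contrast, iSDmut against iNkx2.2, was -1.52 (SE 0.35) with an unadjusted p of 0.0017 and an adjusted p of 0.125 by edgeR's test, so it missed the threshold. Over the alternatives that adjusted p ran from 0.000272 (DESeq2) to 0.589. The authors' deposited table calls the same difference, with a log2 value of 1.74 for wild type over mutant. Nkx2-2 itself was lower in iSDmut than in iNkx2.2 by a log2 value of 0.53 that did not pass (adjusted p = 0.37). The part of transgene level in the Cdh22 difference was not tested. The iSDmut increase of Cdh22 over pMN lost its adjusted p without pMN replicate 1 (0.0687), iNkx2.2 replicate 1 (0.0503) or iSDmut replicate 2 (0.0772).

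The other type II cadherins with appreciable counts did not pass either test against pMN. Cdh6, a marker of segmenting epithelia and early neural tissue, was at 30.6, 16.9 and 32.9 CPM in pMN, 37.5, 24.4 and 35.8 in iNkx2.2, and 37.0 and 52.3 in iSDmut. Cdh24 was at 25.4, 20.9 and 26.0 CPM in pMN, 27.1, 20.1 and 26.9 in iNkx2.2, and 19.5 and 15.4 in iSDmut. Both genes overlapped between pMN and iNkx2.2, while the iSDmut libraries lay above both other groups for Cdh6 in 1 of 2 libraries and below both for Cdh24 in 2 of 2. Cdh8 was at 0.334 to 0.677 CPM in pMN and 0.134 to 0.340 in iNkx2.2, a few reads per library (log2 fold change -1.37, adjusted p = 0.124).

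N-cadherin (Cdh2) and E-cadherin (Cdh1) differed from pMN in opposite directions after wild-type induction, neither past the threshold. Cdh2 was at 192, 195 and 205 CPM in pMN, 149, 153 and 175 in iNkx2.2, and 254 and 203 in iSDmut. The iNkx2.2 libraries were all below the pMN libraries, and the iSDmut libraries were above iNkx2.2 and overlapped pMN. The log2 fold change of iNkx2.2 against pMN was -0.31 (SE 0.11, adjusted p = 0.102 by edgeR's test), and with the replicate block it was -0.32 with an adjusted p of 0.0167. The direct contrast of iSDmut with iNkx2.2 for Cdh2 was 0.52 (SE 0.12, unadjusted p = 0.00152, adjusted p = 0.122). Cdh1 was at 52.0, 81.2 and 95.4 CPM in pMN, 152, 146 and 176 in iNkx2.2, and 35.0 and 153 in iSDmut. All iNkx2.2 libraries were above all pMN libraries for Cdh1 (log2 fold change 1.05, SE 0.43, adjusted p = 0.168), and the 2 iSDmut libraries lay at either end. With either iSDmut library left out of the shared model, Cdh1 passed for iNkx2.2 against pMN. Those fits hold the same pMN and iNkx2.2 libraries and lose only the spread between the 2 iSDmut libraries. They therefore add no support to the Cdh1 difference. For iSDmut against pMN the direction of Cdh1 turned with the library, at 1.01 (adjusted p = 0.104) without replicate 1 and -1.12 (adjusted p = 0.103) without replicate 2.

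Replicate 1 of iSDmut stood apart from the other progenitor libraries in markers of several cell types. The summed level of 8 epithelial genes was 22.7 CPM in it, 134 in the other iSDmut library, 111 to 198 in pMN and 167 to 241 in iNkx2.2. A mesenchyme list summed to 15.7 CPM in it against 43.7 to 102 elsewhere. Cdh3 (P-cadherin) was low in the same library, at 1.96 CPM against 4.40 to 10.8 elsewhere, and Pcdh19 was high, at 17.4 against 2.51 to 5.33. The part of this library's makeup in its cadherin values was not tested. In bulk RNA, fewer cells of a type and less RNA per cell cannot be told apart.

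Per length, as deposited FPKM, Cdh2 was the leading Cdh gene of pMN at 32.7 FPKM ± 2.14 (SD, n = 3), which was 51.7% of all Cdh FPKM, and Cdh1 held 18.4% at 11.6 ± 3.45 (SD, n = 3). In iNkx2.2 both genes were close, with Cdh2 at 28.2 FPKM ± 2.65 (34.5%) and Cdh1 at 26.0 ± 2.95 (31.7%, SD, n = 3 each). In iSDmut Cdh2 held 49.1% and Cdh1 18.4% of Cdh FPKM, the latter the mean of 2 libraries at 5.46 and 24.0 FPKM. Among protocadherins Pcdhga9 led in every group, with 53.9% of Pcdh FPKM in pMN, 54.5% in iNkx2.2 and 47.2% in iSDmut. That row may carry reads of the constant exons shared by the gamma genes, because it is the single gamma row of the table.

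Among delta protocadherins, Pcdh1 was at 11.9, 12.9 and 19.2 CPM in pMN, 27.2, 28.1 and 45.4 in iNkx2.2, and 17.8 and 25.3 in iSDmut. All iNkx2.2 libraries were above all pMN libraries, and iSDmut overlapped pMN. Pcdh1 rose by 1.19 on the log2 scale after wild-type induction (SE 0.25, 2.28-fold, adjusted p = 0.0211 by edgeR's test). Pcdh8 (paraxial protocadherin, which acts in cell movement and somite formation) was at 4.62, 5.52 and 4.70 CPM in pMN, 1.51, 0.806 and 1.13 in iNkx2.2, and 1.79 and 0.540 in iSDmut. Every induced library lay below every pMN library. Pcdh8 fell by 2.07 (SE 0.40, adjusted p = 0.0148) on the log2 scale with wild-type Nkx2.2, and its log2 fold change was -2.12 (SE 0.48, adjusted p = 0.0464) with the mutant, and the direct contrast of the transgenes was -0.04 (SE 0.48). Leaving out pMN replicate 1 or 2 ended the wild-type calls of Pcdh1 (adjusted p = 0.0935 and 0.0814), Pcdh8 (0.0522 and 0.0507) and Pcdhb3 (0.0574 and 0.061). Pcdhb3 also missed it without iNkx2.2 replicate 1 (0.0803) or 2 (0.0565). Leaving out iNkx2.2 replicate 3 ended those of Pcdh1 (0.0602) and Pcdh8 (0.0516). For iSDmut, Pcdh8 passed only with all libraries or without iSDmut replicate 1 (log2 fold change -3.18, adjusted p = 0.0154).

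The other delta2 genes did not pass without the block. Pcdh18 was at 27.8, 30.7 and 23.6 CPM in pMN, 18.3, 25.1 and 17.5 in iNkx2.2, and 30.4 and 25.2 in iSDmut, and the first 2 groups overlapped. The log2 fold change of Pcdh18 in iNkx2.2 was -0.43 (adjusted p = 0.144), and with the replicate block -0.44 (adjusted p = 0.0321). Pcdh17 and Pcdh19, the latter a gene whose loss causes an epilepsy in people, overlapped between pMN and iNkx2.2. In iSDmut both genes were higher in replicate 1 than in replicate 2, at 7.11 CPM for Pcdh17 and 17.4 for Pcdh19 against 2.91 and 3.24 in replicate 2.

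**Figure D2:**
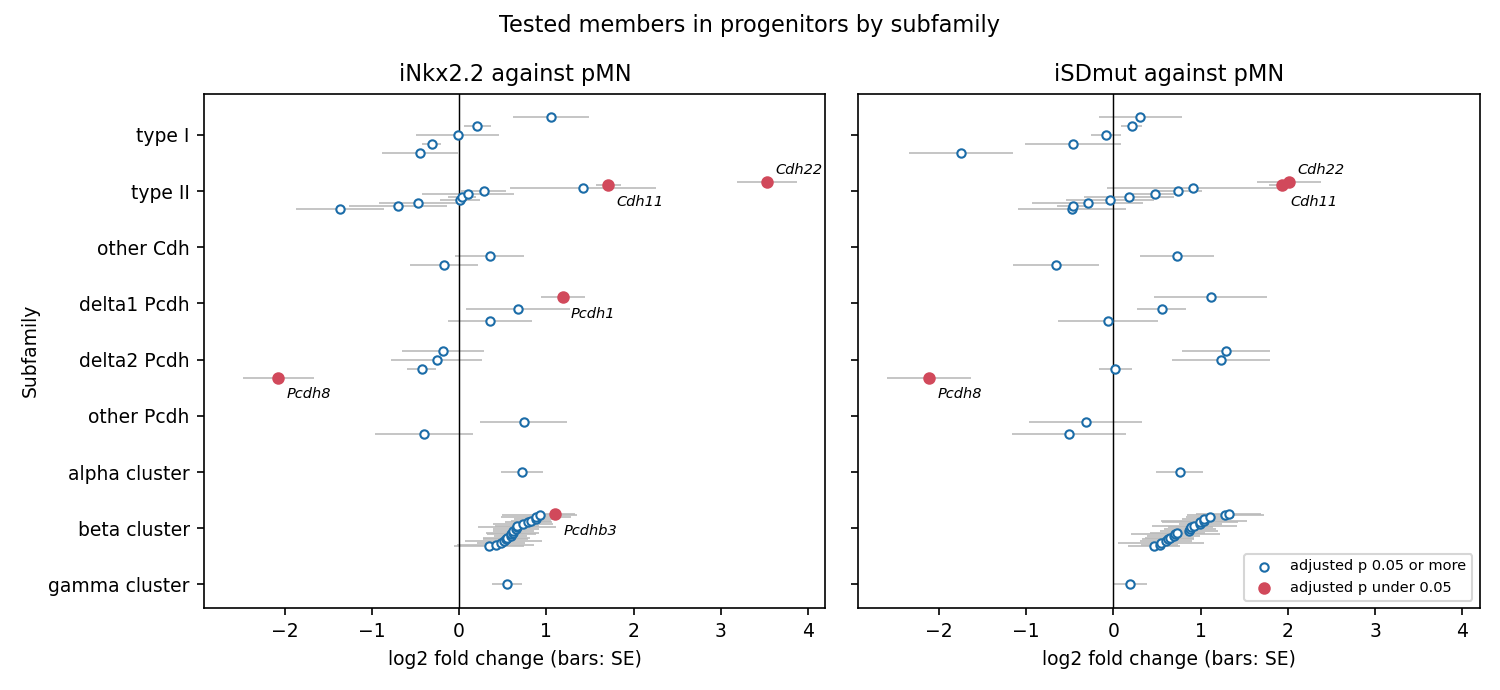
log2 fold change of every tested member against pMN, by subfamily, with bars for the SE and filled points for an adjusted p under 0.05. All 20 tested beta-cluster rows lie to the right of 0 in both panels, and the called members are Cdh11, Cdh22, Pcdh1, Pcdhb3 and Pcdh8 on the left and Cdh11, Cdh22 and Pcdh8 on the right.

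The beta-cluster protocadherins, each encoded by its own single exon, were higher together. All 20 tested rows of the 22 were higher in iNkx2.2 than in pMN, by log2 values of 0.34 to 1.10 (median 0.64), and all 20 were higher in iSDmut, by 0.47 to 1.32 (median 0.87). Of these, 8 in iNkx2.2 and 13 in iSDmut had an unadjusted p under 0.05. Over all genes, 12.7% in iNkx2.2 and 9.4% in iSDmut were higher at such a p. Over all genes Pcdhb3 alone passed after adjustment in iNkx2.2, and none did in iSDmut (smallest adjusted p = 0.0583). With the replicate block, 9 of the 20 passed in iNkx2.2, beside 29.6% of all genes. They were Pcdhb3, Pcdhb22 (adjusted p = 0.00561), Pcdhb16 (0.0121), Pcdhb6, Pcdhb2, Pcdhb19, Pcdhb21, Pcdhb11 and Pcdhb17 (0.0411). Pcdhb3 was at 3.51, 2.91 and 3.13 CPM in pMN, 7.59, 7.43 and 5.51 in iNkx2.2, and 7.17 and 5.57 in iSDmut, with no overlap between pMN and the induced libraries (iNkx2.2 log2 fold change 1.10, SE 0.22, adjusted p = 0.0168). The cluster's rows summed to 64.6, 60.6 and 47.2 CPM in pMN, 105, 93.6 and 72.6 in iNkx2.2, and 113 and 84.9 in iSDmut. Each induced library was above each pMN library. Replicate 3 of pMN and of iNkx2.2 was run on lane 4 and the others of those groups on lane 2. For iNkx2.2 the sum was higher after induction within each of these lanes. Replicate 1 of iSDmut was run on lane 2 and replicate 2 on lane 3, which held no pMN or iNkx2.2 library. Lane and replicate therefore cannot be told apart within iSDmut. The beta genes are close copies of each other, so reads may be split uncertainly between them. Pcdhga9, at 156, 138 and 203 CPM in pMN, 215, 218 and 292 in iNkx2.2, and 171 and 207 in iSDmut, had a log2 fold change of 0.54 (adjusted p = 0.0764) after wild-type induction and passed with the replicate block (0.55, adjusted p = 0.00198). Pcdha2 was at 6.68, 3.94 and 6.14 CPM in pMN, 9.39, 7.52 and 10.8 in iNkx2.2, and 10.8 and 8.23 in iSDmut. Each induced library of Pcdha2 lay above each pMN library, and it passed only with the block (adjusted p = 0.0976 without, 0.0075 with).

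For iSDmut against pMN, 3 of 48 members passed (Cdh11, Cdh22 and Pcdh8), beside 3.54% of all genes. The median member was higher by 0.64 on the log2 scale against -0.01 for all genes. At an unadjusted p under 0.05, 18 of 48 were higher beside 9.4% of all genes, and 13 of the 18 were beta-cluster rows. Both contrasts use the same pMN libraries. In the direct contrast of iSDmut with iNkx2.2, none of 48 members passed by edgeR's test, beside 0.281% of all genes. At an unadjusted p under 0.05 there were 7 members (14.6%), beside 12.5% of all genes. DESeq2 called 2 members, Cdh22 and Cdh2, among 496 genes called. Without iSDmut replicate 2 the members called were Cdh1 (log2 -2.18), Pcdh19 (2.25) and Cdh2 (0.67), which leaves replicate 1, the library low in epithelial markers, as the only mutant library.

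Markers of progenitor identity moved with the induction. A list of 7 pMN progenitor genes, Olig2 among them, summed to 1040 to 1090 CPM in pMN, 552 to 583 in iNkx2.2, and 849 and 550 in iSDmut. The motor neuron list summed to 145 to 224 CPM in pMN, 30.3 to 64.5 in iNkx2.2, and 98.1 and 99.2 in iSDmut. The part of these marker changes in the cadherin levels was not tested.

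Partner genes of the family were counted from a separate list. Over all genes tested, 9.49% passed for iNkx2.2 against pMN and 3.54% for iSDmut against pMN. With lists this short the counts are description only. After wild-type induction, 2 of 14 tested catenin, linker and nectin genes rose, Jup (plakoglobin, log2 fold change 1.61, adjusted p = 0.0145) and Arvcf (0.46, adjusted p = 0.0351), and 2 fell, Pkp4 (-0.39) and Ctnnal1 (-0.39), by edgeR's test. Of 7 desmosome genes Dsc3, a desmosomal cadherin, rose (3.02, adjusted p = 0.0198). Among 12 more distant cadherins, Cdhr1 (2.03) and Dchs1 (0.87) rose and Fat3 (-1.06, adjusted p = 0.0018) and Clstn2 (-1.36) fell. Snai3 alone rose of 9 tested regulators of epithelial and mesenchymal states, from 0 to 0.0557 CPM in pMN to 0.408 to 0.627 in iNkx2.2. Smchd1, a chromatin protein that represses clustered protocadherins, was lower by a log2 value of -0.34 (adjusted p = 0.0414) and was 1 of 8 listed cluster regulators to pass. None of 9 processing enzymes passed. With the mutant, Dsc3 (4.49, adjusted p = 0.0079) and Tcf4 (0.43) rose, Fat3 (-0.77, adjusted p = 0.025) fell, and none of 14 catenin and linker genes or 8 cluster regulators passed.

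In islets at 8 weeks, the betaSDmut libraries held more E-cadherin and more Pcdhac2 and less Pcdh15 and Pcdhga5 than controls. These were 4 of 80 tested members past an adjusted p of 0.05, beside 7.94% of all 15413 genes tested, a share of 5% of the members. The median member differed by a log2 value of 0.06 against 0.01 for all genes. An unadjusted p under 0.05 was reached by 15% of members and 25.7% of all genes.

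**Figure D3:**
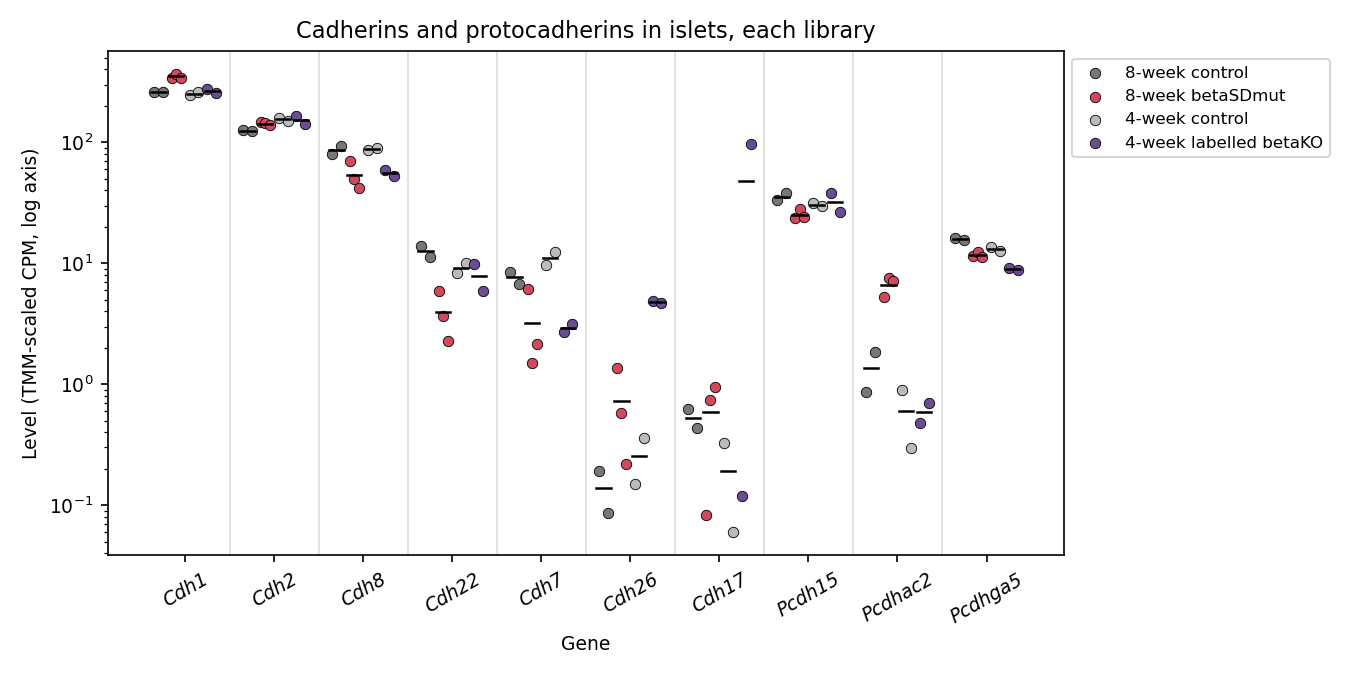
Level of 10 members in each islet library, as TMM-scaled CPM on a log axis, with a black bar at each group's mean. Cdh1 and Pcdhac2 lie higher in all 8-week betaSDmut libraries than in both 8-week controls, Cdh8, Cdh22 and Cdh7 lie lower, and Cdh17 is high in 1 library labelled betaKO.

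Cdh1 was at 258 and 261 CPM in 8-week controls and 342, 369 and 342 in betaSDmut. All 3 mutant libraries lay above both controls. Cdh1 rose by 0.43 (SE 0.08, 1.35-fold, adjusted p = 0.0287 by edgeR's test). In 4-week islets Cdh1 was at 245 and 260 CPM in controls and 275 and 255 in the libraries labelled betaKO, overlapping (a log2 difference of 0.07, adjusted p = 0.756). The difference between the effects was 0.36 (adjusted p = 0.202 by edgeR, 0.0337 by DESeq2). In every such difference the genotype label and the age change together and cannot be told apart. Cdh1 carried the intronic Nkx2.2 site whose sequence is given above. Per length it led the Cdh genes in every islet group, with 109 FPKM and 54.8% of Cdh FPKM in 8-week controls, 147 and 65.5% in betaSDmut, 115 and 50.4% in 4-week controls, and 107 and 51.4% in the libraries labelled betaKO.

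N-cadherin and R-cadherin, the other type I genes above the filter, did not pass in islets. Cdh2 was at 127 and 123 CPM in 8-week controls, 146, 143 and 139 in betaSDmut, 160 and 149 in 4-week controls, and 164 and 142 in the libraries labelled betaKO. The 8-week mutants lay above the 8-week controls (log2 fold change 0.18, adjusted p = 0.141), and the 4-week groups overlapped. Cdh4 was at 16.2 and 14.7 CPM in 8-week controls and 15.8, 19.2 and 17.2 in betaSDmut, overlapping. It carried one of the strongest member sites in MIN6, 401 kb from its start. The authors' deposited join links Cdh4 to another site instead, with a mean log2 CPM of 7.35.

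Of the type II cadherins, 6 of 9 tested in 8-week islets were lower and none passed. Cdh22 was at 13.8 and 11.3 CPM in 8-week controls and 5.91, 3.68 and 2.28 in betaSDmut. No library overlapped (log2 fold change -1.68, SE 0.37, adjusted p = 0.0553 by edgeR's test). DESeq2, and edgeR without betaSDmut replicate 1 (-2.08, adjusted p = 0.00678) or replicate 3, called it, and the authors' deposited table calls it lower too. At 4 weeks Cdh22 was at 8.30 and 10.1 CPM in controls and 9.77 and 5.93 in the libraries labelled betaKO, overlapping (-0.22, adjusted p = 0.774). The difference between the effects, -1.45, had an adjusted p of 0.303. In progenitors Cdh22 was higher than in pMN with wild-type Nkx2.2 (log2 fold change 3.53) and with the SD-domain mutant (2.01). The direct contrast of these transgenes missed the threshold. In betaSDmut islets Cdh22 was lower without passing the main test, and in E15.5 pancreas the genotypes overlapped.

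Cdh8, a type II cadherin known from brain, was at 79.6 and 93.9 CPM in 8-week controls, 69.4, 49.5 and 41.8 in betaSDmut, 86.7 and 90.4 in 4-week controls, and 59.0 and 52.5 in the libraries labelled betaKO. Mutants lay below their controls at both ages. At 4 weeks Cdh8 fell by 0.67 (SE 0.10, adjusted p = 0.0468), and at 8 weeks the value was -0.70 (adjusted p = 0.118). The difference between these was -0.03 (SE 0.29, adjusted p = 0.981). Per length Cdh8 was level with Cdh2 in 8-week controls (32.4 and 31.8 FPKM). Cdh8 made up 16.3% of Cdh FPKM in 8-week controls and 9.17% in betaSDmut, and 16% and 9.52% at 4 weeks. The deposited site table joins a site to Cdh8 that lies farther than 50 kb from its start.

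Cdh7 was at 9.61 and 12.5 CPM in 4-week controls and 2.72 and 3.12 in the libraries labelled betaKO, without overlap. Cdh7 fell by 1.92 (SE 0.24, adjusted p = 0.0351 by edgeR's test). At 8 weeks it was at 8.45 and 6.80 CPM in controls and 6.08, 1.49 and 2.14 in betaSDmut, again with every mutant below both controls (-1.24, adjusted p = 0.26). The first betaSDmut library was nearest the controls for Cdh7, Cdh8 and Cdh22. Without it all 3 genes passed edgeR's test at 8 weeks, Cdh7 at -2.06 (adjusted p = 0.00683) and Cdh8 at -0.93 (adjusted p = 0.00741). Leaving out the mutant library nearest the controls widens these differences by construction. Those passes therefore add no support, and none of the 3 genes passed the main 8-week test. Cdh5 (VE-cadherin of endothelium) was at 27.0 and 27.4 CPM in 8-week controls, 27.9, 25.8 and 22.2 in betaSDmut, 39.7 and 41.0 in 4-week controls, and 26.6 and 33.5 in the libraries labelled betaKO. An endothelial list summed to 525 and 606 CPM in those 4-week controls and 366 and 451 in the libraries labelled betaKO.

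Cdh26, an atypical cadherin known from epithelia, was at 0.149 and 0.358 CPM in 4-week controls and 4.91 and 4.68 in the libraries labelled betaKO. The groups were far apart, with 5 and 6 reads against 83 and 60. Cdh26 rose by 4.33 (SE 0.50, 20.2-fold, adjusted p = 0.0331 by edgeR's test). At 8 weeks it was at 0.191 and 0.0867 CPM in controls and 1.37, 0.578 and 0.217 in betaSDmut, with every mutant above both controls on 2 to 33 reads (log2 fold change 2.34, adjusted p = 0.197). The difference between the effects was -1.98 (adjusted p = 0.535). In E15.5 pancreas Cdh26 was at 0, 0.271 and 0.259 CPM in controls and 1.60, 1.28, 2.01 and 0.501 in Nkx2.2SDmut, with no overlap (log2 fold change 2.91, SE 0.93, unadjusted p = 0.0150, adjusted p = 1). Cdh26 was higher in each of these 3 pancreas and islet contrasts, of which the 4-week one passed. In progenitors it had 1 read over all libraries.

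Cdh23 was higher in the libraries labelled betaKO without passing, and Cdh17, below the count filter at 4 weeks, was high in 1 of them. Cdh23 (a tip-link protein of hair cells) was at 0.238 and 0.418 CPM in 4-week controls and 2.07 and 1.09 in the libraries labelled betaKO (a log2 difference of 2.33, adjusted p = 0.154). Cdh17 (LI-cadherin of intestinal epithelium) was at 0.118 and 96.1 CPM in those 2 libraries and at 0.0597 to 0.942 in the other islet libraries. The library with the high value, betaKO replicate 2, also held 705 CPM of a list of 9 intestinal genes against 60.4 to 107 elsewhere, with Fabp1 at 139 and Fabp2 at 127 CPM. The part of intestinal RNA in other members' values in that library was not tested. Beta-cell markers, the insulin genes among them, summed to 233000 and 239000 CPM in 8-week controls and 215000, 211000 and 197000 in betaSDmut. At 4 weeks they summed to 208000 and 212000 CPM in controls and 177000 and 165000 in the libraries labelled betaKO. The mesenchyme list was at 234 and 294 CPM in 8-week controls and 186, 170 and 126 in betaSDmut. At 4 weeks it was at 254 and 229 CPM in controls and 390 and 469 in the libraries labelled betaKO. The part of these marker differences in the members' values was not tested. Acinar markers ranged from 1200 to 44800 CPM over the islet libraries, with the highest value in betaKO replicate 1, and hormone genes of the other islet cell types summed to 76300 and 61500 CPM in the libraries labelled betaKO against 29300 to 44900 elsewhere.

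The 4-week contrast had 3 of 71 tested members past the threshold (Cdh26 higher, Cdh7 and Cdh8 lower), beside 1.56% of all 14942 genes tested. None of the 3 passed without either 4-week control or without betaKO replicate 2. For those fits the adjusted p was 0.121, 0.116 and 0.0704 for Cdh26, 0.128, 0.203 and 0.0676 for Cdh7, and 0.182, 0.237 and 0.113 for Cdh8. For the difference between the 8-week and the 4-week effects, none of 83 tested members passed by edgeR's test, beside 1.21% of all genes. At an unadjusted p under 0.05 there were 10 members (12%), beside 13.7% of all genes. DESeq2 called 1 member, Cdh1, among 663 genes called.

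Pcdhac2, the last variable exon of the alpha cluster and the isoform linked to serotonergic axons, was at 0.859 and 1.86 CPM in 8-week controls and 5.29, 7.60 and 7.10 in betaSDmut. No library overlapped. Pcdhac2 rose by 2.27 (SE 0.37, 4.84-fold, adjusted p = 0.0229 by edgeR's test). Its neighbour Pcdhac1 was at 0.573 and 1.08 CPM in 8-week controls and 2.00, 2.64 and 2.03 in betaSDmut (1.41, adjusted p = 0.0719). At 4 weeks Pcdhac2 was at 0.892 and 0.298 CPM in controls and 0.474 and 0.703 in the libraries labelled betaKO, overlapping. The difference between the effects on Pcdhac2 was 2.40, with an unadjusted p of 0.0118 and an adjusted p of 0.202. Alpha-cluster rows summed to 12.3 and 18.9 CPM in 8-week controls and 30.1, 27.4 and 23.7 in betaSDmut, without overlap, and to 12.3 and 9.55 in 4-week controls and 7.58 and 9.05 in the libraries labelled betaKO. Alpha and gamma genes share 3' constant exons, so reads of one isoform may be counted to another.

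The beta and gamma clusters overlapped between the genotypes of 8-week islets. Beta rows summed to 65.7 and 61.7 CPM in 8-week controls and 77.3, 66.2 and 65.5 in betaSDmut, and gamma rows to 125 and 134 in controls and 124, 143 and 124 in betaSDmut. Pcdhga5 was at 16.1 and 15.6 CPM in 8-week controls and 11.5, 12.5 and 11.3 in betaSDmut, where it fell by 0.43 (SE 0.09, adjusted p = 0.0424 by edgeR's test). At 4 weeks Pcdhga5 was at 13.7 and 12.7 CPM in controls and 9.12 and 8.74 in the libraries labelled betaKO (-0.57, adjusted p = 0.165 by edgeR's test). These did not overlap either, which is common with 2 libraries a group. Pcdhgc3 was the leading gamma row per length, at 13.8 FPKM ± 1.05 (SD, n = 2) in 8-week controls and 12.9 ± 1.37 (SD, n = 3) in betaSDmut.

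**Figure D4:**
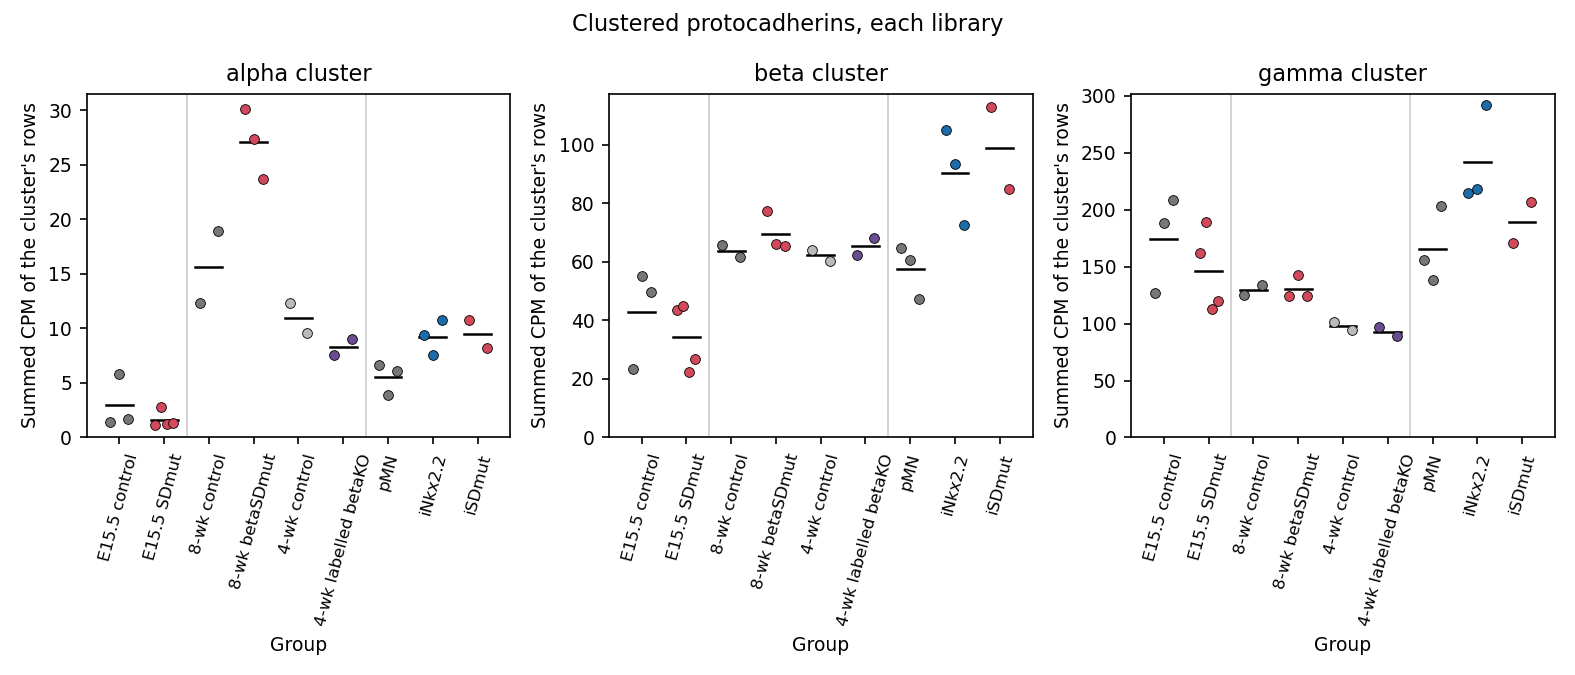
Summed CPM of the alpha, beta and gamma protocadherin rows in each library of all 9 RNA groups, with a black bar at each group's mean. Grey lines part the 3 tables, whose levels are not on one scale, and the progenitor table holds 1 alpha and 1 gamma row. Alpha sums are higher in 8-week betaSDmut than in 8-week controls, and beta sums are higher in both induced progenitor groups than in pMN.

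Pcdh15, a partner of Cdh23 in the tip link of hair cells, was at 33.2 and 38.0 CPM in 8-week controls and 23.6, 28.0 and 23.9 in betaSDmut. All mutant libraries were below both controls. Pcdh15 fell by 0.51 (SE 0.11, adjusted p = 0.0462 by edgeR's test). It was at 31.2 and 29.9 CPM in 4-week controls and 37.8 and 26.4 in the libraries labelled betaKO, overlapping. Pcdh1 was at 42.7 and 44.6 CPM in 8-week controls and 32.5, 38.9 and 35.0 in betaSDmut (-0.31, adjusted p = 0.107), while it rose after induction in progenitors. None of the 4 members called at 8 weeks passed without control replicate 1, control replicate 2 or betaSDmut replicate 2. For Cdh1 the adjusted p was then 0.237, 0.253 and 0.135, and for Pcdhac2 it was 0.124, 0.0749 and 0.0871. The authors' deposited 8-week table calls Cdh1 and Pcdhac2 higher and Cdh22, Pcdh15 and Pcdhga5 lower. Their other deposited comparison, of betaSDmut and betaKO with controls, differs in part. For betaSDmut it calls Cdh1 higher and Cdh22, Cdh8 and Pcdh1 lower, and it does not call Pcdh15. For betaKO against controls it does not call Cdh8. Acinar markers at 8 weeks were at 14900 and 8820 CPM in controls and 1200, 2270 and 12100 in betaSDmut, and their part in these results was not tested.

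Among partner genes in 8-week islets, Ctnna3 (alpha-T-catenin) was at 0.382 and 0.173 CPM in controls and 15.6, 8.63 and 4.24 in betaSDmut, without overlap, and rose by 5.08 (adjusted p = 0.0243). It also rose at 4 weeks by 3.96 (adjusted p = 0.0267), from 0.387 and 0.298 CPM to 4.74 and 6.40. Jup (-0.43), Pvrl1 (nectin-1, -1.11, adjusted p = 0.00853) and Pvrl3 (nectin-3, -0.53, adjusted p = 0.0109) fell at 8 weeks, so 1 of 15 catenin, linker and nectin genes rose and 3 fell. Over all genes tested, 7.94% passed at 8 weeks and 1.56% at 4 weeks, and such list counts are description only. Dsp (desmoplakin), 1 of 6 desmosome genes tested, fell from 173 and 172 CPM to 70.3, 75.8 and 69.6 (-1.27, adjusted p = 0.00114) at 8 weeks. At 4 weeks Dsp was at 95.3 and 118 CPM in controls and 139 and 107 in the libraries labelled betaKO, and its effects differed between the 8-week and 4-week contrasts (-1.47, adjusted p = 0.0163). Fat1, a giant cadherin, fell by 0.37 (adjusted p = 0.0354) at 8 weeks and rose by 0.67 (adjusted p = 0.0486) at 4 weeks, a difference of -1.04 (adjusted p = 0.0127). Ovol2, a transcription factor that keeps epithelia from turning mesenchymal, was at 11.5 and 15.2 CPM in 8-week controls and 30.9, 30.4 and 31.7 in betaSDmut. Ovol2 rose at both ages (1.21, adjusted p = 0.00761 at 8 weeks, and 1.47, adjusted p = 0.0331 at 4 weeks). It was the 1 of 9 tested regulators of epithelial and mesenchymal states to rise at 8 weeks, and Tcf4 fell (-0.31, adjusted p = 0.0371). Of 13 distant cadherins, Ret (-0.70, adjusted p = 0.00502) fell beside Fat1 at 8 weeks. None of 8 regulators of the protocadherin clusters passed at either age. Of 9 processing enzymes Pcsk6 alone passed at 8 weeks, where it fell (-0.99), and none passed at 4 weeks.

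In E15.5 pancreas no member of 78 tested passed, beside 0.00534% of all 18723 genes tested, and 1 had an unadjusted p under 0.05, Cdh26. DESeq2 called none either. A missed threshold is weak evidence here, since edgeR's test recovered 4.08% of simulated log2 changes of 1 and 73.7% of those of 2. The direction was uneven, with 66 of 78 members lower in Nkx2.2SDmut and a median log2 fold change of -0.28 against 0.01 for all genes. The libraries differed within both groups. Against the control mean, the median member was at -0.42, 0.30 and 0.13 in the 3 controls and at -0.13, 0.09, -0.46 and -0.43 in the 4 mutants (log2). Control replicate 1 was as low as SDmut replicates 3 and 4, and the groups overlapped.

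**Figure D5:**
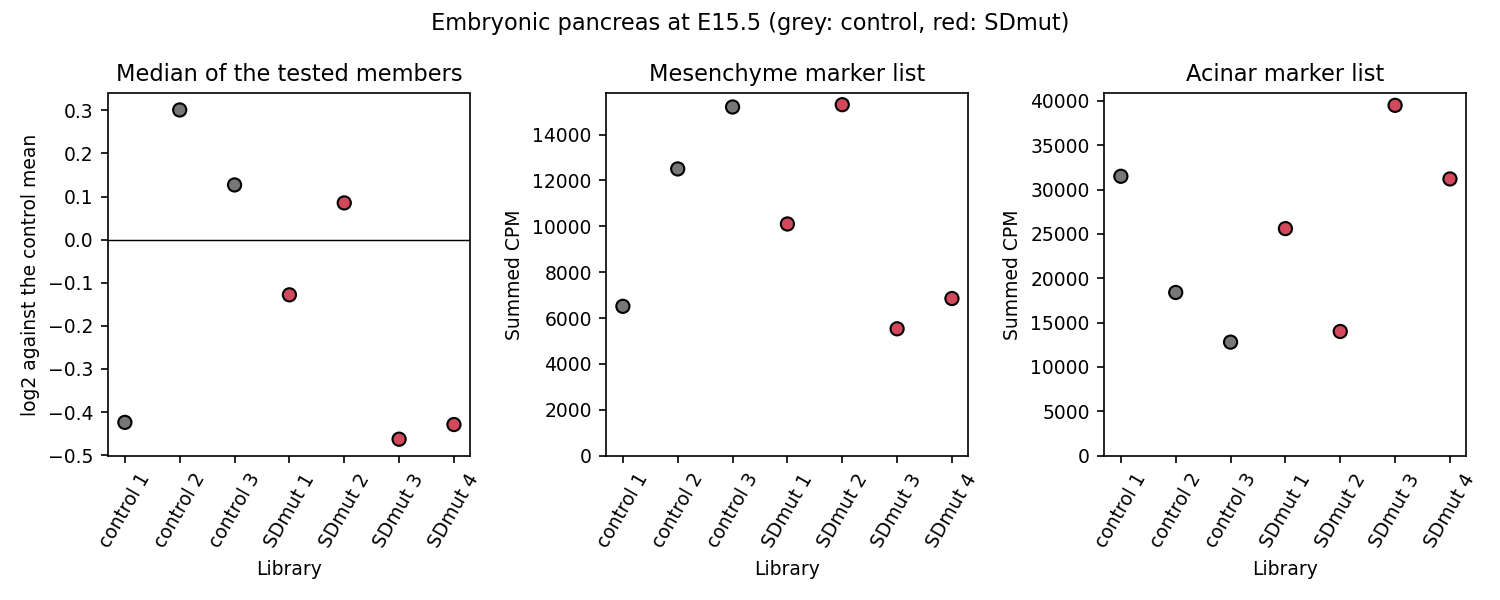
Left, the median log2 level of the 78 tested members in each E15.5 library against the control mean. Middle and right, summed CPM of the mesenchyme and acinar marker lists in the same libraries. Control 1, SDmut 3 and SDmut 4 have low members, the lowest mesenchyme sums and the highest acinar sums.

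The libraries with low members were those with the lowest mesenchyme sums and the highest acinar sums. The mesenchyme list was at 6510, 12500 and 15200 CPM in controls and 10100, 15300, 5530 and 6850 in mutants. The acinar list was at 31500, 18400 and 12800 CPM in controls and 25600, 14000, 39500 and 31200 in mutants. The part of tissue makeup in the members' levels was not tested. Cdh2 was at 26.6, 59.2 and 60.3 CPM in controls and 54.7, 54.8, 23.6 and 27.3 in mutants, with low values in the same 3 libraries. Cdh11, at 131, 199 and 257 CPM in controls and 274, 213, 115 and 104 in mutants, was lowest in these libraries as well. Cdh1, the epithelial cadherin, was at 955, 759 and 584 CPM in controls and 667, 588, 946 and 1050 in mutants, and was highest in these 3. Cdh22 was at 2.50, 5.23 and 3.09 CPM in controls and 4.11, 3.13, 1.84 and 2.72 in mutants, overlapping.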

How the data were processed

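RNA-seq counts of E15.5 pancreas, islets and progenitors and Nkx2.2 ChIP-seq of MIN6 cells were used. Raw counts per gene, FPKM, counts at binding events and log2 CPM at final sites are the authors' deposited values. The authors' deposited comparison tables (a log2 change, a p-value and a call score of -1, 0 or 1 per gene) were used only where named. The submitters' processing notes list STAR, Cufflinks, DESeq2, edgeR 3.20.9, limma 3.34.9, bedtools 2.17.0 and mm10. Strandedness is not given in the sources used here.

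Each table was fitted on its own with edgeR 4.0.16 (R 4.3.3; TMM, filterByExpr, robust quasi-likelihood fit), with p-values adjusted by Benjamini-Hochberg over all genes tested and a threshold of 0.05. Standard errors were derived from each estimate and its F statistic. The 3 progenitor groups shared 1 model. DESeq2 1.42.0, other size factors, no filter, blocks and leaving out each library were alternatives, and the fits were tested on simulated data. With 1 spread for all genes, simulated log2 changes of 1 were recovered in 4.08% of cases at E15.5 and 11.1% for the difference of islet effects. The share was 26% at 4 weeks, 58.2% at 8 weeks and 60.6% to 79.8% in progenitors. For log2 changes of 2 it was 73.7% at E15.5, 73% for the difference and 95% to 97% elsewhere. A member that did not pass may therefore still have changed. The members and lists were chosen with earlier results of these data known, and the intestinal and epithelial lists were added after Cdh17 and Cdh1 had been seen. Named members are those called, Cdh and single Pcdh genes past the filter, and the leading rows of each cluster.

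Deviations from the group mean of same-numbered pMN and iNkx2.2 libraries correlated at 0.561, 0.548 and 0.584 across genes, so those numbers were taken as pairs from the data; the labels do not say what a number shares. MIN6 input was not analysed here. Motifs and gene positions came from GRCm38.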

Additional observations from a re-analysis of the deposited data

Results flagged for a closer look

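In E15.5 pancreas, SDmut replicate 2 lay far from the other 3 SDmut libraries for 3 members and for the alpha-cluster sum, by Dixon's test of the highest value at the 95% level. Cdh15, the cadherin of skeletal muscle, was at 45.2 CPM in it and 0.417 to 1.55 in the others. Cdh17, the intestinal cadherin, was at 36.0 CPM against 0.392 to 1.08. Cdh13 was at 10.4 CPM against 4.08 to 4.83. The summed alpha cluster was at 2.82 CPM against 1.16 to 1.29, while control replicate 2, with 83.8 CPM of the muscle list, had an alpha sum of 5.82 CPM against 1.43 and 1.74 in the other controls. SDmut replicate 2 held 7130 CPM of the muscle list, against 69.6 to 165 in the other SDmut libraries, and 114 CPM of the intestinal list, against 24.0 to 26.4. Control replicate 3 likewise had 6140 CPM of the muscle list and Cdh15 at 49.8 CPM. The part of these other tissues in the values was not tested. Chance puts about 1 in 20 groups past this test, and 38 values were checked, of which 4 passed.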

How the results depend on the processing

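The number of members called depended on the setting in every contrast but E15.5, where it was 0 in each alternative tried, and no member called in a contrast changed direction there. Members that were not called did: Cdh1 in iSDmut against pMN was 1.01 without iSDmut replicate 1 and -1.12 without replicate 2, Pcdh19 in the same contrast went from 1.23 to -0.43 without replicate 1, and Cdh17 in the difference of islet effects went from -7.46 to 1.01 without betaKO replicate 2 (log2). With DESeq2 the members called, with all genes called in brackets, were 7 (1999) at 8 weeks, 1 (663) for the difference of islet effects, 11 (2214) for iNkx2.2 against pMN, 7 (1349) for iSDmut against pMN and 2 (496) for iSDmut against iNkx2.2. Without a count filter, iSDmut had 5 (681) against pMN and 1 (145) against iNkx2.2. With the replicate block they were 2 (757) at 8 weeks, 1 (263) at 4 weeks, 17 (4629) for iNkx2.2 against pMN, 14 (2626) for iSDmut against pMN and 4 (528) for iSDmut against iNkx2.2. In islets the numbers did not pair libraries (correlations of deviations -0.126 to -0.039), so those blocks share only a number. For iSDmut, replicate 1 correlated at 0.376 with pMN replicate 1 and at 0.334 with iNkx2.2 replicate 1. Replicate 2 of iSDmut correlated at 0.054 and 0.108 with its counterparts. All progenitor contrasts with the block come from 1 shared model, so the iSDmut libraries also bear on the 17 for iNkx2.2. Leaving out 1 library gave 0 to 7 members (37 to 2765 genes) at 8 weeks, 0 to 4 (4 to 478) at 4 weeks, 0 to 1 (0 to 343) for the difference, 2 to 6 (412 to 1604) for iNkx2.2 against pMN, 1 to 3 (171 to 471) for iSDmut against pMN and 0 to 3 (1 to 467) for the direct contrast. With lane 2 libraries alone, 7 members (994 genes) were called for iNkx2.2 against pMN. The cause of these shifts was not tested. The main counts over all genes were 1 at E15.5 (28 by DESeq2), 1224 at 8 weeks, 233 at 4 weeks (798 by DESeq2), 194 for the difference, 1486 for iNkx2.2 against pMN, 554 for iSDmut against pMN and 44 for the direct contrast. With a window of 10 kb in place of 50 kb, 6 members had an Nkx2.2 site, and with 100 kb 15 did. Outside the clusters these were 17.1% of members beside 14.1% of protein-coding genes at 10 kb, and 28.6% beside 42.2% at 100 kb, so which share was larger turned with the window. With 2 or 3 libraries a group, members at a few reads, such as Cdh26 and Cdh8 in progenitors, could not be measured closely.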
